A study of Mus musculus with 10 samples.

Results

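The 10 secreted proteins of the acute-phase and innate response described here include markers of the primed state of alveolar type 2 (AT2) cells: Lcn2, Lrg1, Orm1, Saa3, Slpi, Hp, C3, Cp, Itih4 and Apoc1. These 10 of the 31053 genes in the matrices were chosen by symbol, and all 10 were found and passed the filter on low counts. EpCAM+ cells that carried RFP or YFP were sorted from the distal mouse lung and their RNA was counted cell by cell in 10 droplet libraries. In Sftpc-CreERT2; R26R-Confetti mice a tamoxifen-inducible Cre driven by the surfactant protein C promoter labels AT2 cells, and RFP+ and YFP+ cells are both wildtype (1 library of each colour). In Sftpc-CreERT2; Red2Kras mice the same Cre makes RFP+ cells mutant, whereas YFP+ cells of the same lungs stay wildtype, and cells were taken 4 days or 2 weeks after induction (2 libraries for each colour and time). All groups, Confetti included, carried Sftpc-CreERT2 and received 3 doses of 0.2 mg tamoxifen per g body weight, and per the methods of the study all mice were 8-week-old adults of a mixed C57BL/6Brd-Tyrc-Brd background, at least 2 lungs were pooled per sample, and the Confetti lungs, for which the labels give no time, were collected at 2 weeks. By the same methods, tamoxifen was not yet fully cleared at 4 days.

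The acute-phase response is the release of plasma proteins, above all by the liver, when interleukin-6 and interleukin-1 signal through STAT3, C/EBP and NF-κB factors. Epithelial cells of the lung make several of the same proteins, which bind iron, haem products or lipids, inhibit proteases or opsonise microbes. In AT2 cells, which secrete surfactant and renew the alveolar epithelium, Lcn2 and Lrg1 are used as markers of a primed state that precedes the damage-associated transient progenitor (DATP) state on the way to alveolar type 1 cells.

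All 10 members are protein-coding genes in GENCODE M21 (GRCm38). Lcn2 (chr2:32384633-32388252, minus strand) encodes lipocalin 2, which withholds iron from bacteria by binding their siderophores. Lrg1 (chr17:56119678-56122001, minus strand) encodes a secreted leucine-rich glycoprotein that modulates TGF-β signalling in vessels. Orm1 (chr4:63344560-63348163, plus strand) encodes orosomucoid, a plasma carrier protein, and Slpi (chr2:164354070-164389095, minus strand) an inhibitor of leukocyte elastase. Hp (chr8:109575128-109579172, minus strand) encodes haptoglobin, which binds free haemoglobin, and C3 (chr17:57203970-57228136, minus strand) the central complement component. Itih4 (chr14:30886476-30902353, plus strand) encodes an inter-alpha-trypsin inhibitor heavy chain, and Apoc1 (chr7:19689481-19692660, minus strand) an apolipoprotein of lipoprotein particles. Saa3 (chr7:46711998-46715700, minus strand) encodes a serum amyloid A that is made outside the liver, and Cp (chr3:19957054-20009145, plus strand) the copper-carrying ferroxidase ceruloplasmin.

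Promoter windows (RefSeq, GRCm38.p6, from 250 bases before to 50 after the annotated start) were found for 7 members and searched on both strands for 3 sets of letters, namely GGGA, any 3 bases and TCC for NF-κB, TTGCNNAA for C/EBP and TTCNNNGAA for STAT. No window was found for Orm1, Hp or Apoc1, on which the results below also turn. The 250 bases before the start are shown for 5 of the 7 genes. These are Lcn2, Slpi and Lrg1, whose levels in both 2 weeks YFP+ libraries lay above Confetti, and C3 and Itih4, which were lower in mutant cells. Capitals mark a match to any of the 3 motifs. The stretches lie at chr2:32387740-32387989 (minus strand), chr2:164356508-164356757 (minus strand), chr17:56121947-56122196 (minus strand), chr17:57228137-57228386 (minus strand) and chr14:30886226-30886475 (plus strand).
Lcn2: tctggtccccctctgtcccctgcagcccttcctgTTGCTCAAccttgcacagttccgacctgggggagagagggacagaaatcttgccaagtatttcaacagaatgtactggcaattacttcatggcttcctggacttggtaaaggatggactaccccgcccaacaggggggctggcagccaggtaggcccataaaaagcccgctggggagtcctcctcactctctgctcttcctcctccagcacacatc
Slpi: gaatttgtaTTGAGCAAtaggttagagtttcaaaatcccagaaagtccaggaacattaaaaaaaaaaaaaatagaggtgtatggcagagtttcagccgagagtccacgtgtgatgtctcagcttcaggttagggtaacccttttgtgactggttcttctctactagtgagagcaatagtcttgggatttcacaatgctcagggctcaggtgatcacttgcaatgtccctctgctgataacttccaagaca
Lrg1: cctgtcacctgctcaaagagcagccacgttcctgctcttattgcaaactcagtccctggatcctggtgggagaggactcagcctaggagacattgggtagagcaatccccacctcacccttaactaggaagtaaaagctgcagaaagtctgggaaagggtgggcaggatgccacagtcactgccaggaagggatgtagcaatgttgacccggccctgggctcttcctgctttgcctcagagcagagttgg
C3: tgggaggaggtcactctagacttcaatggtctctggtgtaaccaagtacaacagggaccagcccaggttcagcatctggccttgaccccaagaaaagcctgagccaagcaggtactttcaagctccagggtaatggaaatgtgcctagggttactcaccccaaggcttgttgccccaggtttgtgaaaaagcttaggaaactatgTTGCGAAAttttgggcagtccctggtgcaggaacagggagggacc
Itih4: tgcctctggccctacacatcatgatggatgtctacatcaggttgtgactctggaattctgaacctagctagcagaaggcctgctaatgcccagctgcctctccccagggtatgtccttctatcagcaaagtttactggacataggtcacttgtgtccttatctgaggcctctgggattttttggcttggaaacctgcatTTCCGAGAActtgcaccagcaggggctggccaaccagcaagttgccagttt
The C/EBP letters occurred in the windows of Lcn2 (TTGCTCAA, beginning 216 bases before the start), Slpi (TTGAGCAA, 241 bases before), Saa3 (TTATGCAA, 99 bases before) and C3 (TTGCGAAA, 45 bases before), and in 1 of the windows of Cp (TTTTGCAA, 70 bases before). They occurred in 10.8% of all 32851 promoter windows of this length. Among the 7 members with a window, the STAT letters occurred in Itih4 alone (TTCCGAGAA, 51 bases before) against 8.3% of all windows. The NF-κB letters occurred in none of their windows, against 4.59%. Lrg1 held none of the 3. No binding was tested.

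Depth and composition differed between the libraries. Quality filters kept 32698 of 42012 barcodes, marker genes placed 29581 of these in the alveolar class, and the summed alveolar UMIs ranged from 7326713 to 71427537 per library. The 2 weeks RFP+ libraries were the deepest, with a median of 15804 and 13381.5 UMIs per alveolar cell, and the other 8 had medians of 3252 to 6701. All 9 AT2 markers fixed for naming were detected in every library, with a summed level of 91916 to 206358 CPM (UMIs scaled to a common library total). Cells of other classes were removed and made up 3.15% to 42.33% of a library. Any 2 libraries shared at most 17 barcodes. Of the cells whose sex could be read, all were female in Confetti, 82.7% and 85.14% were female in the 4 days RFP+ and YFP+ libraries of replicate 1, 35.25% and 25.76% in those of 2 weeks, and at most 0.54% in every replicate 2.

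Lcn2, Lrg1, Orm1 and Slpi were at a low level in Confetti and in replicate 1 of both colours at 4 days, and at a higher level in replicate 2 at 4 days and, with Slpi as a partial exception, in all 2 weeks libraries. The median share of mitochondrial UMIs split the libraries in the same way. It was 4.2% and 3.73% in Confetti and 2.975% and 3.701% in the first 4 days RFP+ and YFP+ libraries. In the other libraries it was 1.403% to 2.613%, and its part in the levels was not tested. Levels are summed UMIs of alveolar cells, scaled to CPM with TMM factors. Lcn2 was at 2149 CPM in Confetti RFP+ and 1856 CPM in Confetti YFP+ cells. In Red2Kras RFP+ cells Lcn2 was at 2311 and 4020 CPM (replicates 1 and 2) at 4 days and at 5162 and 3550 CPM at 2 weeks, and in YFP+ cells at 2068 and 6885 CPM at 4 days and at 6859 and 7020 CPM at 2 weeks. The lowest 2 weeks library thus lay above both Confetti libraries, whereas the 4 days replicates lay 1.74-fold (RFP+) and 3.33-fold (YFP+) apart.

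Lrg1 was at 648 and 591 CPM in Confetti RFP+ and YFP+ cells, at 469 and 1243 CPM in 4 days RFP+, at 552 and 2354 CPM in 4 days YFP+, at 1355 and 1363 CPM in 2 weeks RFP+ and at 1831 and 2429 CPM in 2 weeks YFP+ cells. Orm1, a far scarcer transcript, was at 4.83 and 5.03 CPM in Confetti, at 3.89 and 22.2 CPM in 4 days RFP+, at 3.67 and 53.3 CPM in 4 days YFP+, at 48.1 and 59.4 CPM in 2 weeks RFP+ and at 54.5 and 42.9 CPM in 2 weeks YFP+ cells. Both genes placed the libraries in the same 2 sets as Lcn2, and for Orm1 the 2 weeks colours overlapped. Slpi was at 202 and 171 CPM in Confetti, at 198 and 498 CPM in 4 days RFP+, at 143 and 910 CPM in 4 days YFP+, at 377 and 206 CPM in 2 weeks RFP+ and at 488 and 627 CPM in 2 weeks YFP+ cells. For Slpi the second 2 weeks RFP+ library was therefore close to Confetti RFP+.

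**Figure D1:**
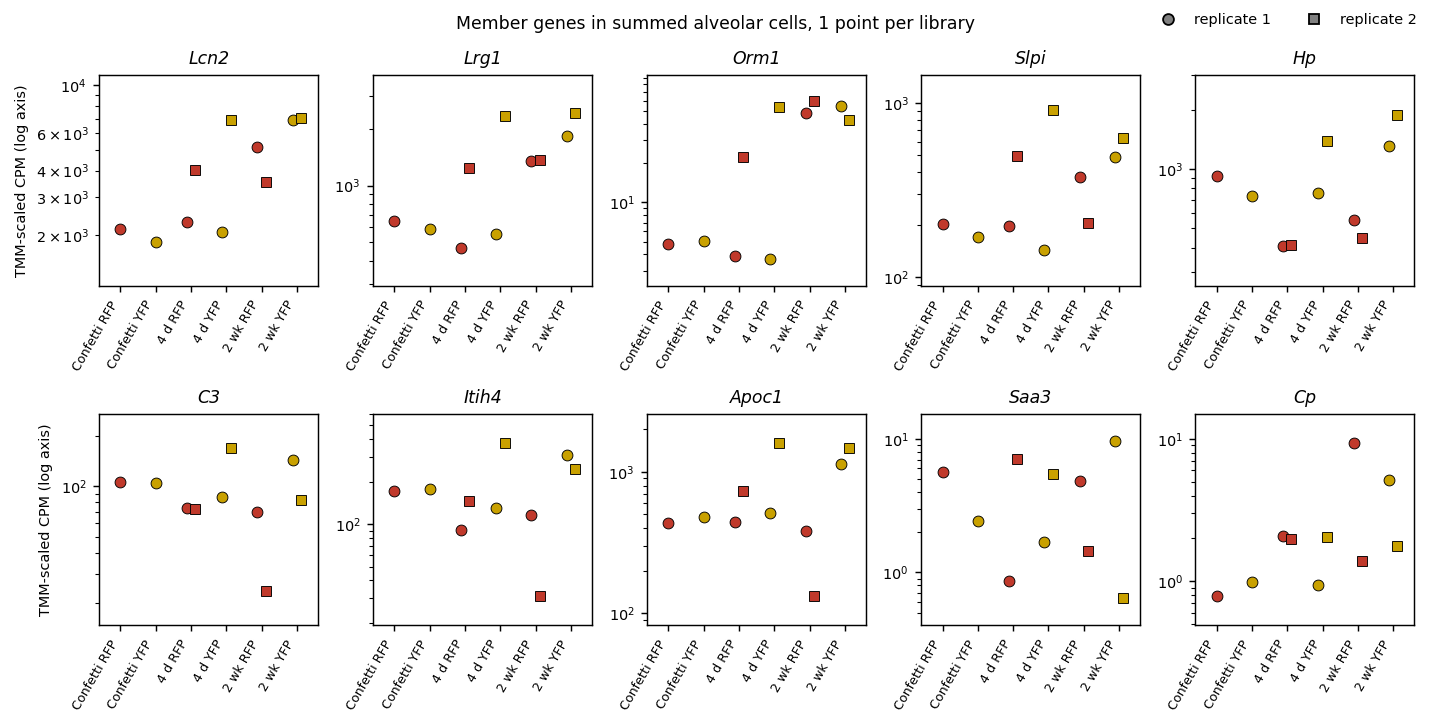
Level of each member in each library, as TMM-scaled CPM of summed alveolar cells on a log axis, with RFP+ libraries in red, YFP+ libraries in yellow, replicate 1 as circles and replicate 2 as squares. Hp was at 408 to 550 CPM in the 4 Red2Kras RFP+ libraries and at 755 to 1891 CPM in the 4 YFP+ libraries, whereas Lcn2 and Lrg1 separated replicate 1 from replicate 2 at 4 days in both colours.

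Hp, C3, Itih4 and Apoc1 followed another order, in which mutant RFP+ cells lay below their YFP+ neighbours. Hp was at 921 and 734 CPM in Confetti RFP+ and YFP+ cells. It was at 408 and 411 CPM in 4 days RFP+, at 755 and 1393 CPM in 4 days YFP+, at 550 and 445 CPM in 2 weeks RFP+ and at 1305 and 1891 CPM in 2 weeks YFP+ cells. All 4 RFP+ libraries were below all 4 YFP+ libraries and below both Confetti libraries. C3 was at 106 and 104 CPM in Confetti, at 74.2 and 73.1 CPM in 4 days RFP+, at 85.7 and 168 CPM in 4 days YFP+, at 70.0 and 23.7 CPM in 2 weeks RFP+ and at 143 and 82.1 CPM in 2 weeks YFP+ cells, again with no overlap between the colours in Red2Kras.

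Itih4 was at 171 and 177 CPM in Confetti, at 91.0 and 147 CPM in 4 days RFP+, at 129 and 377 CPM in 4 days YFP+, at 115 and 30.7 CPM in 2 weeks RFP+ and at 308 and 246 CPM in 2 weeks YFP+ cells. Apoc1 was at 437 and 482 CPM in Confetti, at 443 and 737 CPM in 4 days RFP+, at 511 and 1608 CPM in 4 days YFP+, at 381 and 132 CPM in 2 weeks RFP+ and at 1130 and 1477 CPM in 2 weeks YFP+ cells. The colours overlapped for both genes at 4 days, where replicate 2 was the higher library in each colour, and not at 2 weeks.

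Saa3 and Cp were scarce and varied as much between replicates as between groups. Saa3 ranged from 0.643 to 9.62 CPM, both in 2 weeks YFP+ cells, and rested on 4 to 372 UMIs per library. A single cell held 37 of the 94 Saa3 UMIs of the Confetti RFP+ library and 56 of the 61 of the second 4 days RFP+ library. Cp was at 0.784 and 0.980 CPM in Confetti, at 2.07 and 1.97 CPM in 4 days RFP+, at 0.940 and 2.04 CPM in 4 days YFP+, at 9.37 and 1.40 CPM in 2 weeks RFP+ and at 5.13 and 1.77 CPM in 2 weeks YFP+ cells. The highest Cp level rested on 721 UMIs.

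Against Confetti, 2 weeks YFP+ wildtype cells from mutant-bearing lungs had higher levels of 8 of the 10 members with no overlap between libraries (25% of all 13774 genes tested were higher in this way), and no member was lower. The question this comparison addresses is whether wildtype AT2 cells next to mutant cells differ from those of unperturbed lungs. Fitted log2 fold changes (± SE) were 1.80 ± 0.57 for Lcn2, 1.78 ± 0.69 for Lrg1, 3.31 ± 1.14 for Orm1 and 1.58 ± 0.80 for Slpi. For the other set they were 0.96 ± 0.38 for Hp, 1.51 ± 0.65 for Apoc1, 0.67 ± 0.66 for Itih4 and 0.10 ± 0.53 for C3 (-0.33 without the first 2 weeks YFP+ library), and Cp was at 2.03 ± 0.92 on low counts. No member passed an adjusted p of 0.05 over all genes with edgeR's quasi-likelihood test (adjusted p from 0.763 to 0.965), in a fit that called 3 genes or 0.0218%, and 5 members had an unadjusted p under 0.05 (5.6% of all genes did). Fitted on the groups compared alone, Lcn2, Lrg1, Orm1, Slpi and Cp passed with edgeR's quasi-likelihood test (adjusted p of 0.0163, 0.0184, 3.18e-15, 0.035 and 0.0147), in a fit that called 3.75% of all genes. The study's methods count 1 Confetti sample, so the Confetti RFP+ and YFP+ libraries are read here as 2 colours of 1 pool of lungs, and the comparisons with Confetti, those without overlap and that fit included, rest on controls that are not independent.

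In 2 weeks RFP+ mutant cells the members went both ways from Confetti: 5 were higher and 4 lower with no overlap, in a comparison where 37.3% and 36.3% of all genes were so placed. Orm1 had a log2 fold change of 3.45 ± 1.14, Lcn2 of 1.13 ± 0.56, Lrg1 of 1.14 ± 0.67 and Slpi of 0.65 ± 0.78, and Cp was at 2.62 ± 0.92. Itih4 was at -1.26 ± 0.67, C3 at -1.17 ± 0.54, Apoc1 at -0.84 ± 0.64 and Hp at -0.72 ± 0.37. None of the 10 passed with edgeR's quasi-likelihood test (adjusted p from 0.0929 for Orm1 to 0.909), although 5.32% of all genes did, a share that ran from 0.00722% (1 gene, without the Confetti RFP+ library) to 14.1% (without either 4 days RFP+ library) when 1 library was left out. Orm1 and Cp passed with DESeq2's Wald test (adjusted p of 0.0486 and 0.0249), which called 16% of all genes. The fit of the groups compared alone took its spread from the 2 weeks RFP+ libraries alone and is likewise left to the closing section.

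At 4 days no member passed against Confetti in either colour. In RFP+ cells Lcn2 and Cp were higher, and Hp, C3 and Itih4 lower, with no overlap between libraries (24.6% and 24.7% of all genes). Hp had the widest difference among those 3 lower genes, with a log2 fold change of -1.004 ± 0.376 and an edgeR adjusted p of 0.537, while 0% of genes were called. In YFP+ cells Apoc1 alone was higher without overlap (16.1% of all genes), and the edgeR fit called 0.029% of genes. Each Red2Kras group is compared here with the other mouse line, so line and allele cannot be told apart, and the Confetti comparisons share the same 2 control libraries.

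**Figure D2:**
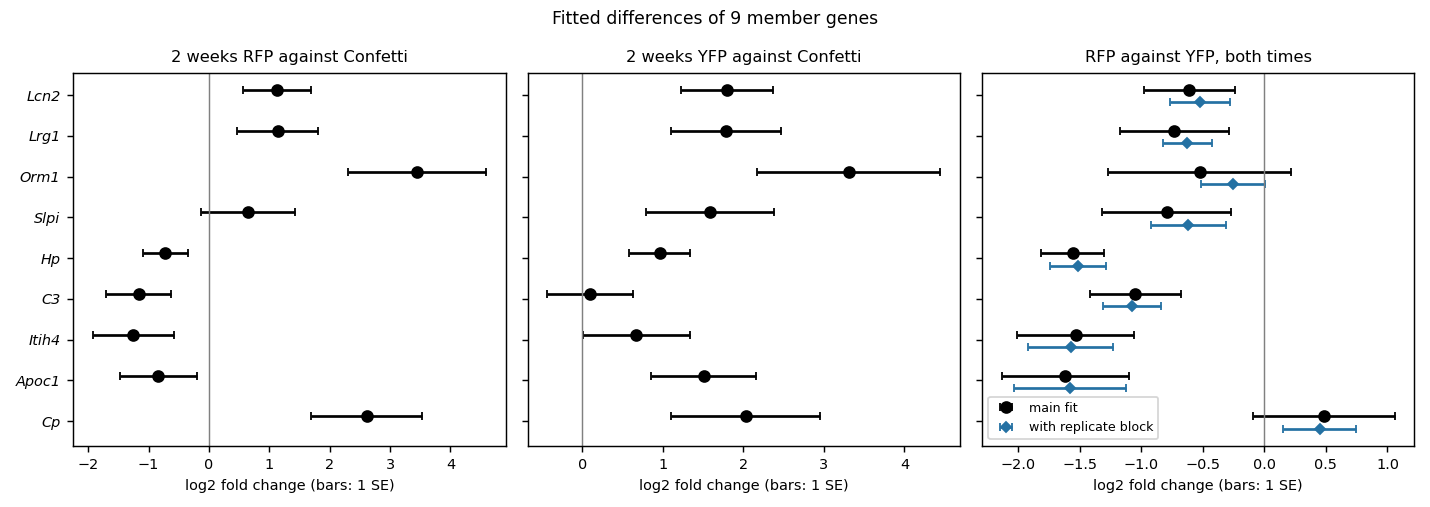
Fitted log2 fold changes with bars of 1 SE for 9 members (Saa3 left out for its low counts), in 2 weeks RFP+ and YFP+ cells against Confetti and in RFP+ against YFP+ cells over both times, where blue diamonds give the fit with the replicate block. Lcn2, Lrg1, Orm1 and Slpi lie to the right of 0 in both left panels, whereas Hp, C3, Itih4 and Apoc1 lie to the left of 0 in RFP+ cells against Confetti and in RFP+ against YFP+ cells.

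Mutant RFP+ cells had less Hp, C3, Itih4 and Apoc1 than YFP+ cells of the same lungs. The summed AT2 markers were lower too, at 177765, 96504, 106193 and 91916 CPM in RFP+ cells (4 days, then 2 weeks). In YFP+ cells these markers were at 201741, 193614, 177691 and 206358 CPM, and their part in the differences was not tested. Over both times (4 against 4 libraries) the log2 fold change was -1.56 ± 0.26 for Hp, -1.05 ± 0.37 for C3, -1.53 ± 0.48 for Itih4 and -1.62 ± 0.52 for Apoc1. Without a replicate term no member passed (edgeR adjusted p of 0.0702, 0.151, 0.119 and 0.124 for these 4), 0% of genes were called, and 4 members and 2862 of 13205 genes (21.7%) had an unadjusted p under 0.05. Libraries with the same number deviated from their group means together, so the fit was repeated with time and number as a block. In that fit Hp (-1.52 ± 0.23, edgeR adjusted p of 0.00639), C3 (-1.08 ± 0.24, adjusted p of 0.0182), Itih4 (-1.58 ± 0.35, adjusted p of 0.0183) and Apoc1 (-1.58 ± 0.46, adjusted p of 0.044) were lower in RFP+ cells, 4 of 10 members in a fit that called 17.2% of all genes.

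The first set of members did not pass in either fit over both times. With and without the block, the log2 fold change of RFP+ over YFP+ was -0.53 ± 0.25 and -0.61 ± 0.37 for Lcn2, -0.63 ± 0.20 and -0.73 ± 0.44 for Lrg1, -0.26 ± 0.26 and -0.53 ± 0.74 for Orm1, and -0.62 ± 0.30 and -0.79 ± 0.52 for Slpi, with edgeR adjusted p from 0.0573 (Lrg1, block) to 0.721. Cp was at 0.45 ± 0.30 with the block and 0.48 ± 0.58 without it. Without the block, 1 library set the direction of 2 of these values, since Orm1 was at 0.68 without the second 4 days YFP+ library and Cp at -0.30 without the first 2 weeks RFP+ library. Hp and C3 were the 2 members whose 4 RFP+ libraries all lay below the 4 YFP+ libraries (4.83% of all genes).

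At 2 weeks 7 of the 10 members were lower in RFP+ than in YFP+ cells with no overlap (25.1% of all genes), Lcn2, Lrg1 and Slpi included. The log2 fold change was -1.68 ± 0.38 for Hp, -2.35 ± 0.67 for Apoc1, -1.93 ± 0.68 for Itih4 and -1.27 ± 0.54 for C3, none of which passed without the block (edgeR adjusted p from 0.191 to 0.301, with 0% of genes called). With the block the same 4 genes passed, at -1.70 ± 0.32 for Hp, -2.56 ± 0.47 for Apoc1, -2.23 ± 0.39 for Itih4 and -1.44 ± 0.29 for C3 (edgeR adjusted p from 0.0124 to 0.0174, with 16.9% of genes called). Lcn2 was at -0.67 ± 0.56, Lrg1 at -0.65 ± 0.67 and Slpi at -0.93 ± 0.78 without the block and did not pass in either fit. At 4 days Hp was at -1.39 ± 0.38 and C3, like Hp, had no overlap (15.9% of all genes were lower in this way), but no member passed with or without the block (edgeR adjusted p for Hp of 0.117 and 0.826, with 1.09% and 0% of genes called). The change of the RFP+ to YFP+ difference between the times was not detectable for any member (edgeR adjusted p of 1 for all 10).

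Sex moved with the first set, since the all-female Confetti libraries and the mostly female 4 days replicate 1 libraries were the low ones, and its part in the differences from Confetti was not tested. The colour differences were also fitted in male cells alone. There Hp was at -1.60 ± 0.25, C3 at -1.10 ± 0.37 and Apoc1 at -1.76 ± 0.48 over both times. These were close to the values of the same genes in all cells, and no male-only value is given for Itih4. No member passed in male cells with edgeR's quasi-likelihood test (adjusted p for Hp of 0.0694, with 0% of genes called). Levels in female cells alone are CPM of their summed UMIs, without TMM factors, and at each time 1 library per colour held most of the female cells, so no test was made. Lcn2 was at 2174 and 2071 CPM in female Confetti RFP+ and YFP+ cells and at 2144 and 1970 CPM in female 4 days RFP+ and YFP+ cells of replicate 1, against 5027 and 6677 CPM in female 2 weeks RFP+ and YFP+ cells of replicate 1. Lrg1 was at 647 and 663 CPM in female Confetti cells and at 1124 and 1974 CPM in the same 2 weeks cells, and Orm1 at 4.90 and 6.00 CPM against 54.9 and 65.6 CPM. Within the 4 libraries that held both sexes, Lcn2 in male cells was 2546, 2594, 5749 and 7304 CPM against 2144, 1970, 5027 and 6677 CPM in female cells. Hp in female cells was 386 CPM in RFP+ and 741 CPM in YFP+ cells of replicate 1 at 4 days, and 605 and 1122 CPM at 2 weeks. Cp in the first 2 weeks RFP+ library was at 23.2 CPM in female and 5.13 CPM in male cells.

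In single cells the groups differed in how many cells held each transcript. Each alveolar cell was thinned to 2000 UMIs, because depth differed, and the share of cells with a UMI was counted (all-UMI shares of group means stand in the closing section). Lcn2 was found in 87.3% (exact 95% interval 86.2 to 88.3) of Confetti RFP+ and 86.8% of Confetti YFP+ cells, in 88.3% and 65.0% of 4 days RFP+, 82.6% and 99.3% of 4 days YFP+, 82.3% and 62.3% of 2 weeks RFP+ and 96.8% and 94.4% of 2 weeks YFP+ cells. The 2 RFP+ libraries with the lowest shares had higher summed Lcn2 than Confetti, so fewer cells held more of the transcript each. The same shares were 9.83% in immune, 18.7% in endothelial and 15.3% in ciliated cells, and whether these cells made Lcn2 themselves was not tested.

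Lrg1 was found in 41.9% and 42.8% of Confetti RFP+ and YFP+ cells, in 33.8% and 54.9% of 4 days RFP+, 35.5% and 89.0% of 4 days YFP+, 67.6% and 51.7% of 2 weeks RFP+ and 76.6% and 76.2% of 2 weeks YFP+ cells. Immune cells, in comparison, had Lrg1 in 12.6% in Confetti and 15.7% at 2 weeks, and endothelial cells in 15.6% and 34.5%, so that the share was higher at 2 weeks in the latter class too. Hp was found in 75.5% and 71.6% of Confetti cells, in 46.3% and 42.5% of 4 days RFP+, 67.1% and 83.8% of 4 days YFP+, 53.3% and 37.4% of 2 weeks RFP+ and 82.4% and 82.6% of 2 weeks YFP+ cells. Its share was 8.88% in immune cells and 80.6% in ciliated cells. Orm1 was found in 0.71% and 1.04% of Confetti cells and in 5.76% to 9.53% of 2 weeks cells of either colour, beside 0.370% of all immune cells, and 6.25% and 12.5% of the ciliated cells of Confetti and 2 weeks. Saa3 and Cp were found in at most 1.68% of the alveolar cells of a library, whereas Cp was found in 17.3% of ciliated and 28.2% of mesenchymal cells. Slpi in alveolar cells ranged from 22.2% to 62.9% and was found in 43.4% of immune cells.

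**Figure D3:**
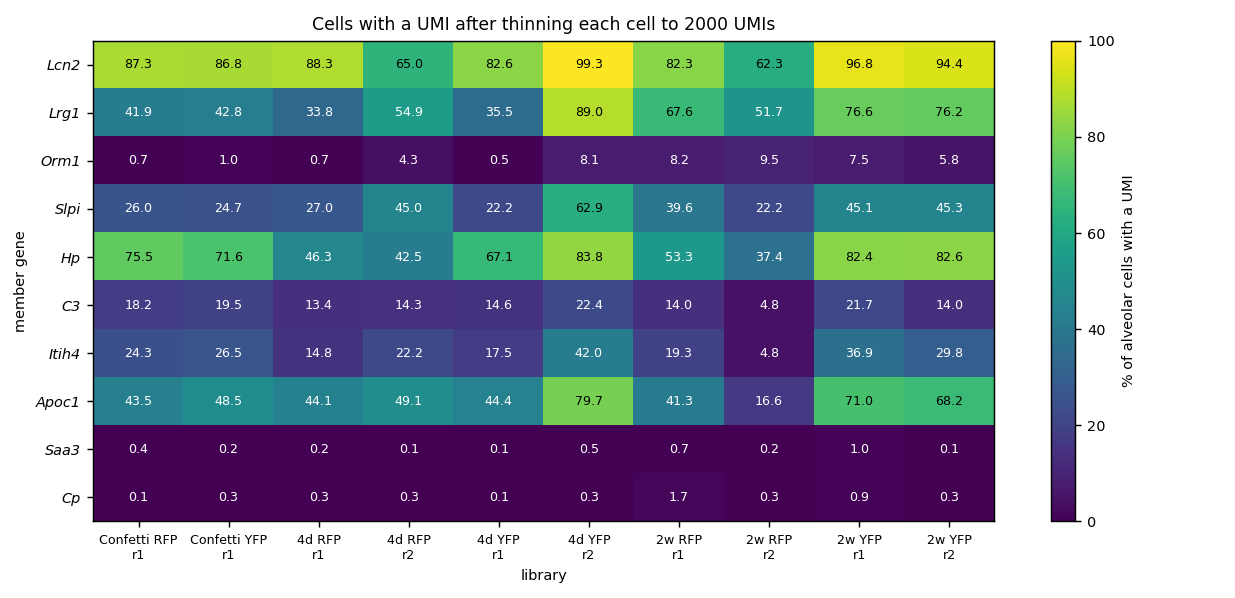
Percent of alveolar cells with at least 1 UMI of each member (rows) in each library (columns) after thinning to 2000 UMIs per cell, printed in each field. Lcn2 reaches 99.3% in the second 4 days YFP+ library and 62.3% in the second 2 weeks RFP+ library, and Saa3 and Cp stay at or under 1.68% everywhere.

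Lcn2 and Lrg1 were found in the same cells, most sharply in the second 4 days RFP+ library and in both 2 weeks RFP+ libraries (thinned cells). In the second 4 days RFP+ library Lrg1 was found in 83.4% of cells with Lcn2 and in 2.00% of cells without it, in the first 2 weeks RFP+ library in 80.4% and 8.38%, and in the second in 80.6% and 3.83%. In Confetti RFP+ cells the shares were 45.8% and 15.1%. Hp followed Lcn2 in the same way, with 63.6% and 3.40% in the second 4 days RFP+ library against 76.8% and 66.3% in Confetti RFP+ cells. In that 4 days library Apoc1 (74.2% and 2.60%), Itih4 (34.0% and 0.200%), C3 (21.0% and 1.80%) and Slpi (63.0% and 11.6%) did so too. The split was therefore not particular to Lrg1 and Hp. DATP-like cells, described below, made up 36.1% of that library, and their part in it was not tested. A cell held a median of 5 of the 10 members in the second 4 days YFP+ library, 3 in each Confetti library and 2 in the second 2 weeks RFP+ library, where 71.8% of cells held at least 1.

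Clusters were made without the 10 members or the wider acute-phase genes, so that the members did not define them, and are described without a test. The 9 clusters were 4 AT2-like ones, a DATP-like one led by Spp1 and Procr, a cycling-like one and 3 that the markers left unnamed. Clusters were unevenly spread: cluster 3, AT2-like and led by Apoc1, Slpi and Lrg1 among the genes compared afterwards, held 85.6% of the second 4 days YFP+ library and 78.4% of the second 2 weeks YFP+ library, cluster 4, led by heat-shock genes, held 66.3% of the first 2 weeks YFP+ library, and cluster 8, unnamed and led by Meg3, held 53.5% of the second 2 weeks RFP+ library.

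The DATP-like cells had the lowest or nearly the lowest level of 8 members. They made up 36.1% of the second 4 days RFP+ library and 21.5% and 38.9% of the 2 weeks RFP+ libraries. Over all libraries they had 896 CPM of Lcn2, 156 of Lrg1, 252 of Hp, 13.8 of C3, 5.71 of Itih4, 120 of Apoc1, 186 of Slpi and 0.300 of Saa3. Lcn2 was found in 17.3% of DATP-like cells after thinning, beside 9.83% to 24.7% in the discarded non-epithelial and ciliated classes. By library, DATP-like Lcn2 was at 243 CPM and in 6.40% of cells in the second 4 days RFP+ library, below that range. In the second 2 weeks RFP+ library it was at 214 CPM and in 10.1% of cells, within that range. In the first 2 weeks RFP+ library it was at 1607 CPM and in 32.7% of cells, above that range. The endothelial and mesenchymal cells of the 2 weeks libraries had Lcn2 in 31.0% and 33.3%. Whether Lcn2 UMIs in any of these cells were their own transcripts was not tested. Orm1 was at 13.0 CPM in DATP-like cells, above clusters 1, 2 and 9 (5.76, 3.18 and 2.83 CPM), but 386 of its 472 UMIs came from the first 2 weeks RFP+ library (22.4 CPM), and it was at 5.08 CPM in the second and at 0.620 CPM in the second 4 days RFP+ library. Cp was at 10.5 CPM and likewise came from the first 2 weeks RFP+ library (21.3 CPM) and was at 0 UMIs in the DATP-like cells of the other 2 libraries with at least 50 such cells.

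AT2-like clusters 3 and 4 and the unnamed cluster 7 had higher Lcn2 and Lrg1 than cluster 1, and the clusters drew their cells from different libraries. Summed over libraries, Lcn2 was at 6707, 7882 and 7899 CPM and Lrg1 at 2407, 2130 and 2211 CPM in these 3 clusters, against 2477 and 768 CPM in cluster 1, which held 67.7% of the Confetti RFP+ cells. Hp was at 1340, 1482 and 777 CPM, against 826 in cluster 1, and Itih4 at 321, 343 and 186 CPM, against 177. Apoc1 was at 1493, 1183 and 547 CPM, against 580, and C3 at 127, 163 and 103 CPM, against 105. Within the 3 libraries with at least 50 cells in clusters 1 and 3, Lcn2, Lrg1 and Itih4 were higher in cluster 3 in all 3, whereas Hp (1143 against 1246 CPM in the first 2 weeks YFP+ library), C3 (78.8 against 95.6 CPM in the second) and Apoc1 (534 against 562 CPM in the first 4 days RFP+ library) were each higher in 2. The Meg3-led cluster 8, of whose cells 91.1% came from the second 2 weeks RFP+ library, had 6336 CPM of Lcn2, 2274 of Lrg1 and 105 of Orm1, which was its highest level, beside 582 of Hp, 54.1 of Itih4, 39.9 of C3 and 263 of Apoc1. Its 87 cells of the first 2 weeks RFP+ library did not share the low second set, with 742 CPM of Hp, 96.3 of C3 and 897 of Apoc1 beside 762, 101 and 527 CPM in cluster 7 of that library, and had 112 CPM of Itih4 beside 181. Of the AT2-like clusters, cluster 2, led by immediate-early genes such as Nfkbia, Atf3 and Fosb, had the lowest Lcn2 and Lrg1, at 1977 and 381 CPM, and this held within each of the 6 libraries with at least 50 of its cells.

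**Figure D4:**
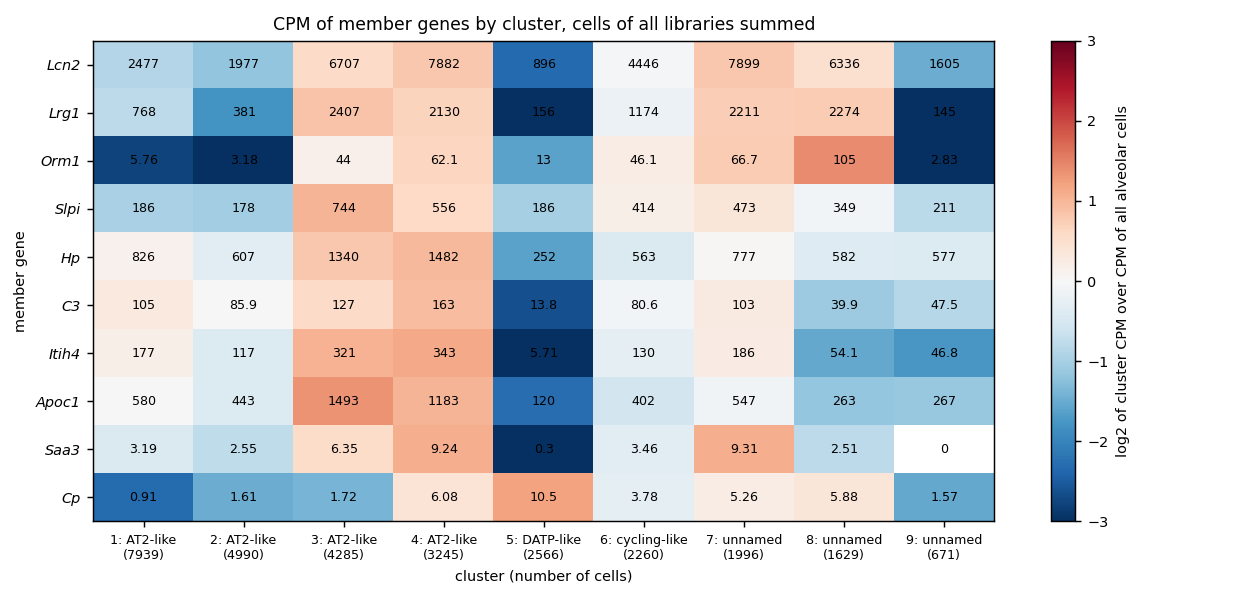
CPM of each member (rows) in each cluster (columns, with the number of cells), summed over libraries and printed in each field, with colour for the log2 ratio to all alveolar cells (white where the level is 0). DATP-like cells hold 5.71 CPM of Itih4 against 321 in cluster 3, and cluster 8 holds 105 CPM of Orm1 but 54.1 of Itih4.

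The colour difference was also seen between cells of 1 cluster. RFP+ and YFP+ libraries of the same time and number had at least 50 cells each in the same cluster in 9 instances, none of them in replicate 2 of 2 weeks, and these instances share libraries. Hp was lower in RFP+ cells in 9 of 9, with a ratio of 0.424 to 0.850. In the cycling-like cluster Hp was at 432 CPM in RFP+ and 1018 CPM in YFP+ cells of the second 4 days replicate, and at 512 and 1116 CPM in the first 2 weeks replicate. C3, Itih4 and Apoc1 were each lower in RFP+ cells in 8 of 9, with median ratios of 0.834, 0.663 and 0.686. Lcn2 was lower in 1 of 9, with a median ratio of 1.11, and Lrg1 in 3 of 9, with a median ratio of 1.06. Slpi was lower in 4 of 9, with a median ratio of 1.16, and Orm1 in 5 of 8, with a median ratio of 0.876 (0.520 to 1.54) on low counts.

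**Figure D5:**
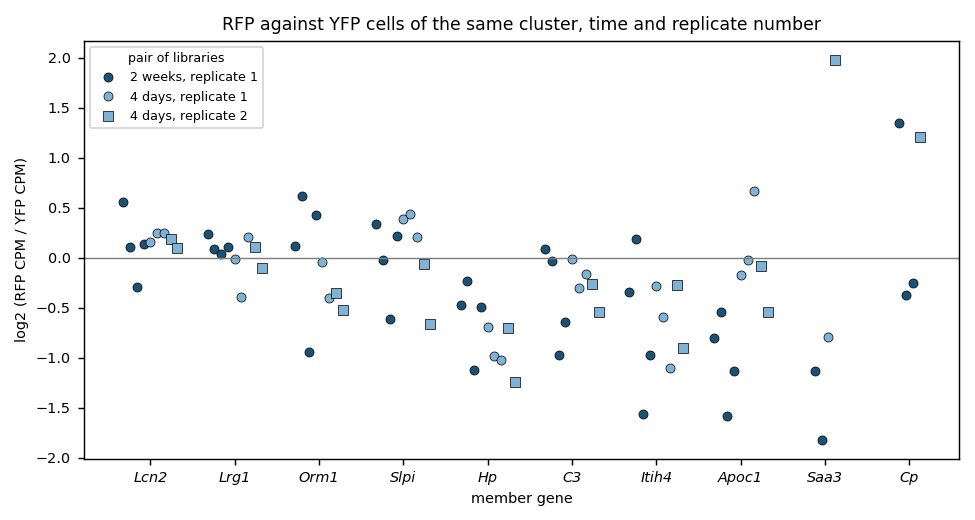
Log2 ratio of RFP+ to YFP+ CPM for each member within 1 cluster of libraries with the same time and replicate number, where each point is a cluster, colour gives the time and shape the number, and only ratios with at least 10 UMIs on each side are drawn. All 9 Hp points lie below 0, and 8 of 9 Lcn2 points lie above it.

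Of 51 other acute-phase and innate secreted genes, 29 were tested, and 3 passed in 2 weeks RFP+ cells against Confetti (5.32% of all genes did), all higher: Apoa1, an apolipoprotein (log2 fold change of 5.09 ± 0.46, edgeR adjusted p of 0.0141), Trf, the iron carrier transferrin (2.64 ± 0.44, adjusted p of 0.0371), and Itih2, a sister chain of Itih4 (5.92 ± 1.32, adjusted p of 0.0457). None of the 3 passed without the Confetti RFP+ library (edgeR adjusted p from 0.0899 to 0.131) or without the Confetti YFP+ library (0.118 to 0.183), and Apoa1 alone passed without the second 2 weeks RFP+ library or without either 4 days YFP+ library. Trf was at 173 and 151 CPM in Confetti, at 849 and 1168 CPM in 2 weeks RFP+ and at 172 and 420 CPM in 2 weeks YFP+ cells. Apoa1 was at 0.543 and 0.784 CPM in Confetti and at 25.4 and 19.5 CPM in 2 weeks RFP+ cells. Itih2 was at 0.181 and 0.196 CPM in Confetti and at 9.18 and 14.3 CPM in 2 weeks RFP+ cells, which are low counts in Confetti, and it was higher where Itih4 was lower. The filter could pass a gene on a single high library, and some tested genes of the list were near 0 in Confetti. Cfb was at 0.0603 and 0.196 CPM in Confetti and at 2.78 CPM in the first 2 weeks RFP+ library. Medians against Confetti thus partly follow from the filter and are not read as a rise of the list. The median log2 fold change of the tested list was 1.51, against 0.03 over all genes. In 2 weeks YFP+ cells, where none passed, it was 1.81 against 0.01. There the widest fitted differences were those of Wfdc17, Ltf and C1s1, which were at or near 0 in Confetti, so that levels are given in place of folds. In 2 weeks YFP+ cells Wfdc17 was at 2.75 and 0.804 CPM, against 0 and 0.262 CPM in Confetti. C1s1 was at 1.55 and 0.161 CPM against 0.362 and 0 CPM, and Ltf at 0.339 and 0 CPM, against 0 in both Confetti libraries. In RFP+ against YFP+ cells over both times none of 26 passed without the replicate block, with a median of -0.55 against -0.02. Values with the block are not given for this list. The widest differences were 2.78 ± 0.84 for Itih2, -2.56 ± 0.74 for Fgg and -2.37 ± 1.04 for Fga, the last 2 being fibrinogen chains.

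Of 30 regulators and receptors of the response, 27 were tested, and none passed in any comparison of the fits without the replicate block. The fit with the block, which called 17.2% of all genes over both times, is not given for this list. In RFP+ against YFP+ cells 6 had an unadjusted p under 0.05 over both times, where 21.7% of all genes did, and 4 at 2 weeks, where 16.3% did. Against Confetti it was 3 in 2 weeks RFP+ cells, beside 31.1% of all genes, and 3 in 2 weeks YFP+ cells, beside 5.6%. In RFP+ against YFP+ cells over both times the widest differences were -1.61 ± 0.83 for Il6, the inducing cytokine, -1.37 ± 0.40 for Cd59a, a complement inhibitor, and -1.04 ± 0.18 for Jak2, a kinase of cytokine receptors (edgeR adjusted p of 0.299, 0.107 and 0.0702). Jak2 was at 16.2, 15.6, 14.9 and 10.8 CPM in the RFP+ libraries (4 days, then 2 weeks) and at 25.8, 29.9, 30.3 and 30.1 CPM in the YFP+ libraries, beside 25.10 and 25.03 CPM in Confetti. The widest differences from Confetti at 2 weeks were -1.62 ± 0.46 for Slc22a17, a lipocalin 2 receptor, -1.38 ± 0.72 for Tsc22d3 and -1.11 ± 0.60 for Lifr in RFP+ cells, and 2.10 ± 1.25 for Il6, 1.63 ± 0.55 for Cd59a and -1.35 ± 0.61 for Lifr in YFP+ cells.

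Markers of other cells were found in the alveolar sums, and their part in the differences was not tested. The 10 neutrophil markers summed to 5.34 and 11.95 CPM in Confetti and to 7.04 and 10.1 CPM in the first 4 days RFP+ and YFP+ libraries. They summed to 54.5 and 29.3 CPM in the second 4 days libraries, to 62.6 and 41.5 CPM in 2 weeks RFP+ and to 26.9 and 29.1 CPM in 2 weeks YFP+ cells, and 1 to 3 of the 10 genes were above 1 CPM in each library. Retnlg was at 12.2 to 60.3 CPM in the libraries with high Lcn2, Lrg1 and Orm1 and 2.24 to 4.42 CPM in the other 4. It carried most of each higher sum except that of the first 2 weeks YFP+ library. There Retnlg was at 12.2 CPM, S100a8 at 5.31 CPM and S100a9 at 8.95 CPM. S100a8 and S100a9 did not follow the order of Retnlg. They were at 0.336 and 0.392 CPM in the first 2 weeks RFP+ library and at 1.59 and 5.94 CPM in Confetti YFP+ cells. Ly6g, a defining neutrophil marker, was at 0 in 5 of 10 libraries. The 5 erythroid markers summed to 78.4 and 379 CPM in Confetti, to 343 and 910 CPM in the first and 0.600 and 0.210 CPM in the second 4 days RFP+ and YFP+ libraries, to 440 and 141 CPM in 2 weeks RFP+ and to 576 and 6.28 CPM in 2 weeks YFP+ cells. The 9 immune markers summed to 52.1 to 77.9 CPM in all libraries. The 7 ciliated markers summed to 138 and 144 CPM in Confetti. They summed to 75.2, 24.3, 36.0 and 29.75 CPM in the RFP+ libraries (4 days, then 2 weeks). In the YFP+ libraries they summed to 120, 51.9, 90.6 and 88.4 CPM. Like Hp, they were lower in RFP+ cells at each time and number. Ciliated cells held 2378 CPM of Hp. The 7 endothelial markers reached 41.7 CPM in the second 4 days and 38.3 and 37.8 CPM in the 2 weeks YFP+ libraries. Elsewhere they summed to 16.2 to 22.6 CPM. The 7 airway secretory markers, carried by Scgb1a1, summed to 2517 and 2726 CPM in Confetti and to 84.5 to 907 CPM elsewhere. Summed DATP markers were at 1072 and 1099 CPM in Confetti, 1868 and 4311 in 4 days RFP+, 5959 and 8914 in 2 weeks RFP+ and 930 to 1949 in YFP+ cells. They were highest in the second 2 weeks RFP+ library, where Itih4, C3 and Apoc1 were lowest. This inverse order did not hold at 4 days. There the second RFP+ library had more DATP markers than the first, and also more Itih4 (147 against 91.0 CPM) and Apoc1 (737 against 443 CPM).

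Over the 10 libraries, the genes with levels most like Lcn2, among 4725 tested genes with a mean of at least 20 CPM, were Ube2f (Pearson r of log2(CPM + 1) of 0.973), Polr3k (0.966), Cxcl17 (0.960), Retnla (0.956) and Hmox1 (0.948). Those most like the mean of the standardised members were Nfil3 (0.95), Alkal1 (0.944), Cxcl17 (0.942), Vma21 (0.940) and Cox6a1 (0.939). These values describe 10 libraries that share groups, lungs and sexes.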

How the data were processed

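Each deposited matrix gives, for every gene and barcode, an unnormalized count of UMIs, produced by the authors using Cell Ranger and the GRCm38 build. The file headers name version 5.0.1 and the processing notes version 3.1.0. No filter on cell quality is stated for them. Barcodes were kept if they had at least 1000 genes, at most 50000 UMIs and at most 15% mitochondrial UMIs, and were clustered together in scanpy 1.11.5 (5000 variable genes, 30 principal components, 20 neighbours, Louvain resolution 0.8) without integration, doublet removal or the members and wider list. A cluster was named from its markers, with limits (score of 0.25 and 2 own markers among the top 10 genes for names other than AT2) set after the clusters were seen.

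UMIs of alveolar cells were summed per library and tested with edgeR 4.0.16 (quasi-likelihood, TMM, filterByExpr, 6 group coefficients over all 10 libraries; for both times, time as a term over the 8 Red2Kras libraries). P-values were adjusted by Benjamini-Hochberg over all genes at 0.05. SE is the absolute log2 fold change divided by the square root of F. The fits were tested on simulated data. Same-numbered RFP+ and YFP+ libraries deviated together from their group means (r across 13774 genes of 0.487 at 4 days and 0.628 at 2 weeks), so a fit with time and number as a block stands beside the main one. With 2 libraries per group these deviations mirror each other. The methods count 1 Confetti sample, so its RFP+ and YFP+ libraries are read as colours of 1 pool of lungs. Pooled lungs make each library 1 replicate, and labels do not say whether replicates are independent litters. By the methods the libraries were made over 2 days, with no day given per library, so day and group cannot be told apart. Each Confetti colour had 1 library and its own coefficient in the main fit. The p-values and SEs thus measure a spread between Red2Kras libraries, which may be technical, and none between control libraries or mice. Replicates differed beyond sampling noise (chi-square per degree of freedom of 44.7 to 220.4). Binomial intervals are exact Clopper-Pearson and cover counting error only.

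All 10 members are reported, as are the genes of the wider lists that passed or, where none did, the 3 widest differences in the comparisons described, and the 5 genes most like Lcn2 and most like the members' mean. The members and lists were chosen with earlier results of these data known. Alternatives are in the closing section.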

Additional observations from a re-analysis of the deposited data

Results flagged for a closer look

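Dixon's test was applied to the 4 RFP+ and the 4 YFP+ libraries of Red2Kras, which mix 4 days and 2 weeks, for each of the 10 members, and 4 values stood apart from the other 3. Chance alone marks about 1 in 20 such sets. Lcn2 in the first 4 days YFP+ library, at 2068 CPM, was far below the other YFP+ libraries (6859 to 7020 CPM). Lrg1 in the first 4 days RFP+ library, at 469.0 CPM, was below the other RFP+ libraries (1243 to 1363 CPM). Both of these libraries were mostly female, and their levels were close to Confetti. C3 in the second 2 weeks RFP+ library, at 23.7 CPM, was below the other RFP+ libraries (70.0 to 74.2 CPM). Cp in the first 2 weeks RFP+ library, at 9.37 CPM, was above the other RFP+ libraries (1.40 to 2.07 CPM). No cause of these 4 values was tested.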

How the results depend on the processing

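No member was called in the main fits. More members were called under several alternatives. The share of all genes called by the same fit stands in brackets, with DESeq2 of those given an adjusted p. With DESeq2's Wald test it was 3 over both times (9.77%), 1 at 4 days (0.846%) and 3 at 2 weeks (3.85%) for RFP+ against YFP+, and 2 (16%) and 1 (0.822%) for RFP+ and YFP+ cells of 2 weeks against Confetti. Without a filter on low counts it was 5 (9.37%), 1 (2.34%) and 4 (6.63%) for RFP+ against YFP+, 1 (3.95%) and 2 (0.662%) for RFP+ and YFP+ cells of 4 days against Confetti, and 5 (15.5%) and 6 (2.56%) for those of 2 weeks. With only the groups compared it was 3 (16.8%) for RFP+ and 5 (3.75%) for YFP+ cells of 2 weeks against Confetti. With the replicate block it was 4 over both times (17.2%) and 4 at 2 weeks (16.9%), and the block changed no other call of members. Leaving out 1 library at a time gave 0 to 1 called over both times, where Hp passed without the first 4 days RFP+ library (edgeR adjusted p of 0.0175, 10.7% of all genes called), and 0 elsewhere. The cause of these differences was not tested. Against Confetti, the fits with only the groups compared took their spread from the 2 libraries of the Red2Kras group alone, and their calls are not read as evidence.

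Of 669 refits of 39 single-gene results, 600 kept direction and side of the threshold, 47 passed it, 18 (all of Apoa1, Trf or Itih2) lost it and 4 changed direction. The 3 genes of the wider list called in 2 weeks RFP+ cells against Confetti became 0 without either Confetti library or with all cell classes summed, 7 with DESeq2, 9 with only the groups compared and 18 without a filter, and the share of all genes called there ran from 0.00722% to 14.1% without 1 library. Without 1 library at a time, Orm1 in RFP+ against YFP+ cells over both times went from -0.85 to 0.68 (without the second 4 days YFP+ library), Cp from -0.30 (without the first 2 weeks RFP+ library) to 0.84, and C3 in 2 weeks YFP+ cells against Confetti from -0.33 (without the first library) to 0.44. In male cells only, Cp over both times was -0.20.

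Shares of cells moved with depth. With all UMIs, the mean share at 2 weeks was 80.8% (RFP+) and 97.3% (YFP+) for Lcn2, 73.3% and 86.4% for Lrg1, 33.4% and 18.0% for Orm1, and 72.1% and 94.0% for Hp. Thinned to 1000 UMIs, it was 68.2% and 90.9% for Lcn2, 50.4% and 64.1% for Lrg1, 4.71% and 3.93% for Orm1, and 31.1% and 67.2% for Hp. Thinned to 2000 UMIs, Saa3 and Cp were found in at most 1.68% of alveolar cells of a library, so their shares rest on few cells at this depth.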
